A study of Mus musculus with 71 samples.

Results

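Hmga1, Hmga2, Igf2bp1, Igf2bp2, Igf2bp3, Lin28a and Lin28b are 7 mouse genes of 3 families that are active in the embryo and, for most members, low in many adult tissues and active again in tumors. Igf2bp2 differs in being widely expressed in adult tissues. Their chromatin loops were taken from an H3K27ac HiChIP loop list of mouse synovial sarcoma (SyS), as every loop with an anchor within 2 kb of an annotated transcription start site (TSS) of a member. By this rule 29 of 24244 loops belonged to the members, and 4 of the 7 genes had at least 1 loop. The members are among 55304 genes with a TSS in GENCODE vM21.

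The series has 71 samples, of which 2 are the H3K27ac HiChIP libraries used here. Both came from hSS2 tumors, in which human SS18::SSX2 is switched on by Cre, and both tumors were started by injecting TATCre, a cell-permeable Cre protein, into the hindlimb of mice at day 8 of life. The protein acts on whichever cells it enters, and whole dissociated tumors were used, so stromal, vascular and immune cells of the mouse are in each sample. HiChIP joins proximity ligation, here after MboI digestion, to immunoprecipitation of H3K27ac, a histone mark of active promoters and enhancers, and each ligated read pair that joins a pair of anchors is counted as a tag. There is no control tissue in this assay, so the loops describe tumors alone. The loops of the 2 tumors were merged by the authors into a list with a total of 41574 tags, which gives no value for either tumor. It consists of a pair of position-sorted parts with 13683 loops (28657 tags) and 10561 loops (12917 tags), called part 1 and part 2 below. Nothing in the list says whether a part belongs to a tumor, and none was inferred. There are therefore no replicates and no test, and all intervals given cover counting error only, with no spread between tumors. The tags also carry no molecular identifiers.

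HMGA proteins are small chromatin proteins whose AT-hooks bind the minor groove of AT-rich DNA. LIN28A and LIN28B bind the precursors of the let-7 microRNAs and block their maturation, and IGF2BP proteins bind mRNAs and protect many of them from decay. The members meet in the let-7 pathway, because mature let-7 represses Hmga2, the Igf2bp genes and the Lin28 genes themselves, and this is the reason that let-7 sequences are shown first.

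The mature let-7 microRNAs in the RefSeq annotation of GRCm38.p6 (11 of 12 hairpins had a matching 5p entry) all had the seed GAGGUAG at bases 2 to 8. Shown are let-7a and the 2 forms whose hairpins start near a loop anchor, in both cases an anchor shared with other genes, with the seed in capitals.
mmu-let-7a-5p: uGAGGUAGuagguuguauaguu
mmu-let-7e-5p: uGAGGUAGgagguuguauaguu
mmu-let-7i-5p: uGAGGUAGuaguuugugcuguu

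The letters complementary to this seed, CTACCTC, were looked for on the transcript strand of the longest annotated 3′ UTR of each gene. At least 1 match was present in all 7 members and in 9.02% of 21020 genes with a 3′ UTR. All members but Hmga1 are named above as repressed by let-7, so matches in them were foreseen and the shares are a description. Hmga2, Igf2bp1 and Lin28b had 4 matches each, a number reached by 0.0571% of genes, Lin28a had 2, and Hmga1, Igf2bp2 and Igf2bp3 had 1 each. The members also had longer 3′ UTRs (1183 to 6337 bases) than the median gene (961 bases), and the part of length in these counts was not tested. The 4 matches of Hmga2 are shown on the transcript strand (minus strand of chromosome 10, GRCm38 sequence from RefSeq), with the match in capitals and 10 bases on either side, because Hmga2 carried the most tags of the members. All lie in the last exon, and the first of them also lies inside a loop anchor described below. A match is a description of letters and not a measured site, and no RNA was measured in these files.
Hmga2 match 1, chr10:120364215-120364241: cattcaatttCTACCTCagcatcagtt
Hmga2 match 2, chr10:120362978-120363004: ctcctcaataCTACCTCtgaatgctac
Hmga2 match 3, chr10:120362540-120362566: ttgcaaggaaCTACCTCcacacttcca
Hmga2 match 4, chr10:120361682-120361708: aaacacactaCTACCTCttaagtccca

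The promoters of Hmga2 and Hmga1, the 2 members with most tags, are shown as the 250 bases before the RefSeq start (GRCm38.p6), 5′ to 3′ on the strand of each gene. Capitals mark the GC box, GGGCGG on either strand, which 32.7% of 32851 RefSeq promoters hold in a window of this length. Hmga2 had 1 GC box in a tract that was 70.8% pyrimidine, and Hmga1 had 3, of which 2 abut as an inverted pair. A second RefSeq start of Hmga1, at 27556604, is not shown and had 4 GC boxes in its window. Neither held CCAAT (33.8% of promoters), TATAAA (12.4%), CACGTG (6.02%) or an MboI site, GATC (41.9%). Windows were searched on both strands, and a missing match says only that these letters are not there.
Hmga2 promoter, chr10:120476470-120476719, minus strand: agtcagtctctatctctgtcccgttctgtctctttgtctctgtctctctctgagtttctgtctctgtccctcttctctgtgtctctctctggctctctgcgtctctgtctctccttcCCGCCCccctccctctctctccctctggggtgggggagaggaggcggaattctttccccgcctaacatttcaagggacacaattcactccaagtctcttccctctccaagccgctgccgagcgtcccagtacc
Hmga1 promoter, chr17:27556324-27556573, plus strand: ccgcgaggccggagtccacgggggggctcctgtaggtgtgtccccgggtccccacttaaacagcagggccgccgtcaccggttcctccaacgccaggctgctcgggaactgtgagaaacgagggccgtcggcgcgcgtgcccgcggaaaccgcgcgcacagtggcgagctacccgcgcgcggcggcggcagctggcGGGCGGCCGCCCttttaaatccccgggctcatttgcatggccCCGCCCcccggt

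Most tags of the members lay at the 2 HMGA genes. The loop score of a gene, which is the sum of tags over its loops, was 36 for Hmga2 (exact Poisson 95% interval 25.2 to 49.8, 13 loops) and 27 for Hmga1 (17.8 to 39.3, 10 loops). Igf2bp1 had a loop score of 5 (1.62 to 11.7, 4 loops) and Igf2bp2 of 2 (0.242 to 7.22, 2 loops). No loop was listed for Igf2bp3, Lin28a or Lin28b. The intervals of Hmga2 and Hmga1 overlapped, as did those of Igf2bp1 and Igf2bp2, and both HMGA intervals lay above both Igf2bp intervals. This order did not hold in every setting. In part 2 alone the HMGA genes held 10 of the 17 tags, 8 at Hmga2 and 2 at Hmga1, and Igf2bp1 was above Hmga1 with 5. With loops at an FDR under 0.001 Hmga2 kept 7 tags and Hmga1 16.

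**Figure D1:**
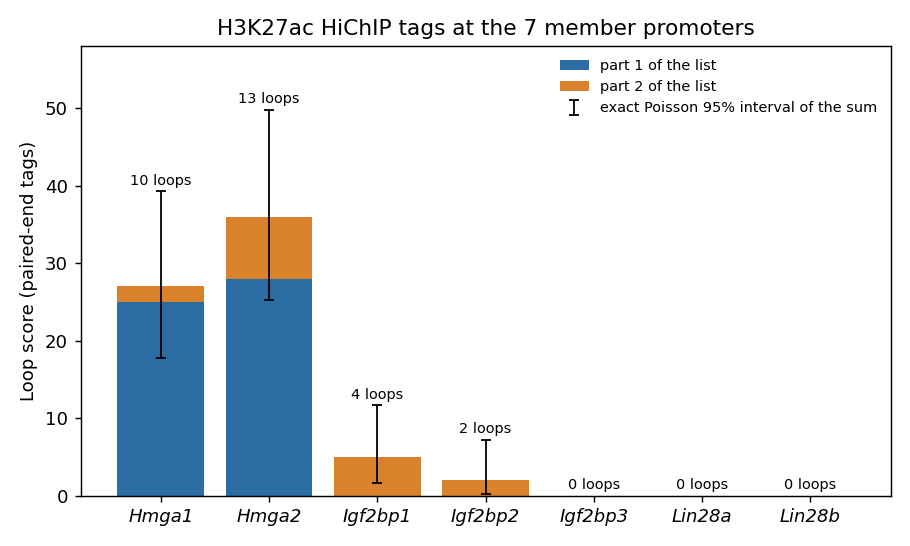
Bars give the loop score (paired-end tags, y axis) of each of the 7 members (x axis), split by part of the loop list, with the number of loops above and the exact Poisson 95% interval of the sum as error bars where there was a loop. Hmga2 (36 tags) and Hmga1 (27 tags) stand above Igf2bp1 (5) and Igf2bp2 (2), and Igf2bp3, Lin28a and Lin28b have no listed loop.

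The 29 loops of the members held 70 tags, which is 0.168% of all tags (Wilson 95% interval 0.133 to 0.213%), and the HMGA genes held 63 of these (90%). A loop was found at 4 of the 7 members (57.1%), while 23.9% of all genes and 45.8% of the 21911 protein-coding genes had one, so the number of looped members was close to the protein-coding background. A loop score of at least 20 was reached by 2 members, and by 4.8% of protein-coding genes. The median loop score was 2 over the 7 members and 0 over all protein-coding genes. Among looped genes alone it was 16 over the 4 members and 4 over the protein-coding genes. The 4 scores were 36, 27, 5 and 2, so a median of 16 is near none of them. Only 2 members, Hmga1 and Hmga2, had loops in part 1 and in part 2, as did 24.3% of protein-coding genes. Single tags made up 17 of the 29 loops (58.6%, Wilson 40.7 to 74.5%), against 78% of all loops. Loops of the same gene are not replicates, and the part of span in this difference was not tested. Part 2 held 17 of the members' 70 tags (24.3%) and 31.1% of all tags. No loop joined a member to another member.

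**Figure D2:**
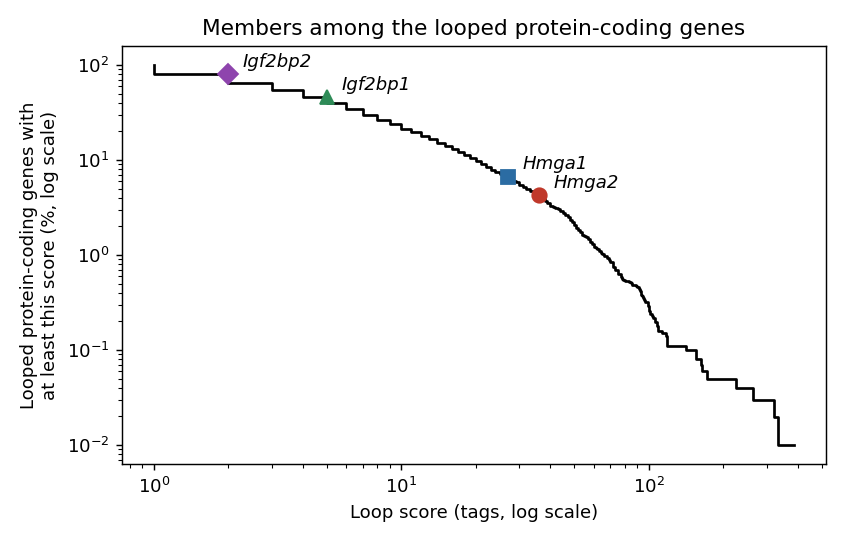
The black step line gives the share of looped protein-coding genes (%, log scale) that reach at least a given loop score (tags, log scale), and symbols mark the 4 looped members. Hmga2 and Hmga1 sit on the falling part of the curve at 36 and 27 tags, and Igf2bp1 and Igf2bp2 near its start at 5 and 2 tags.

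Hmga2 (ENSMUSG00000056758.14) lies on the minus strand of chromosome 10 at 120361275 to 120476469, spans 115 kb and has 3 annotated transcripts. Its loop score of 36 was above that of 95.5% of looped genes, at rank 557 of 13200. Part 1 gave 28 tags in 9 loops and part 2 gave 8 tags in 4 loops, and within each part alone Hmga2 was above 93.5% and 92.8% of looped genes. The anchors at the promoter, chr10:120474636-120477846 in part 1 and chr10:120472672-120477846 in part 2, were near no other gene's TSS. No other gene thus shares the promoter end of these loops. At their distal ends, 14 of the 36 tags lay near another TSS and count for those genes too. Loop spans ranged from 47.39 to 986.9 kb with a median of 220.4 kb. More tags joined the promoter to sites downstream, in the direction of transcription (24 tags in 6 loops), than upstream (12 tags in 7 loops).

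The loop with the most tags ran from the promoter into the gene's own body. It held 11 tags (FDR 0.00166, span 47.39 kb, part 1) and ended at chr10:120427965-120429732, inside the intron of 88 kb between exon 3 (120462664 to 120462714) and exon 4 (120374668 to 120374700) and 18.4 kb from the nearest TSS. In human benign mesenchymal tumors, breakpoints within HMGA2 often fall in the corresponding intron, which separates the AT-hooks from the acidic tail. Among the 52 part 1 loops within 10% of this span the median was 9 tags, and 34.6% had at least 11, so the count is common for that span. The central 300 bases of this anchor are shown on the plus strand with their only MboI site in capitals, because this is the site most often joined to the promoter. They had a GC content of 61.7% and did not hold TGANTCA, an AP-1-like pattern with any base allowed at N. The anchor as a whole held this pattern once, at chr10:120429344-120429350.
Hmga2 intronic anchor, chr10:120428698-120428997: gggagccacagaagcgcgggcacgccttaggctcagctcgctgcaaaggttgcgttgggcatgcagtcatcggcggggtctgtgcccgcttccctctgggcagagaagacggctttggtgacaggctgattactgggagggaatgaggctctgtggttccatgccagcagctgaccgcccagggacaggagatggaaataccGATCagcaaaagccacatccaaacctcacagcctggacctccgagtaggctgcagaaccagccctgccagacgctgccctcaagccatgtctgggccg

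In part 2 no loop between the promoter and this intronic site was listed. The same site lay inside a wider part 2 anchor, chr10:120419899-120429732, which carried 14 tags in 5 loops to other places. The most frequent of these loops, with 6 tags (FDR 0.00331, 57.92 kb), ran to chr10:120363776-120370014 at the 3′ end of the gene, an anchor that covers the start of the last exon (120361275 to 120364296), let-7 match 1 and the start of the antisense gene 1700006J14Rik. The promoter itself was joined to that 3′ anchor by 4 tags in part 2 (FDR 1.8e-05, 108.4 kb), a count reached by 2.76% of the 362 part 2 loops within 10% of this span. In part 2 the fewest tags of a listed loop were 2 at 20 to 100 kb and 1 at 100 to 300 kb. The 10% window crosses this change, and its part in the share was not tested. The 3′ anchor and the wide intronic anchor were each joined by 4 further tags to chr10:120402473-120404024, also in the intron (36.35 and 21.57 kb). Part 2 loops of 20 to 100 kb had a median of 4 tags and 59.4% had at least 4, so these counts are common. The wide anchor was joined by 2 tags, and the promoter by 2 tags, to chr10:120646637-120648533 in an intron of the lincRNA gene 4930471E19Rik. Within the gene, part 2 thus joined the 3′ end to the promoter and to the intron, and part 1 joined the promoter to the intron.

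In all, 30 loops with 67 tags had an anchor in the Hmga2 gene, and 17 of them (31 tags) did not touch the promoter. Of these 17 loops, 3 with 4 tags were in part 1 and 14 with 27 tags in part 2. Both anchors were inside the gene for 5 loops with 29 tags, of which 4 loops with 18 tags were in part 2. Among 4006 protein-coding genes of 50 to 200 kb, 1.57% had any loop with both anchors inside. At least 5 such loops were listed for 3 genes, Zfp608, Meis1 and Hmga2, and at least 29 tags for 4 genes, Bahcc1, Ptch1, Zfp608 and Hmga2, and this comparison was chosen after the values were seen. Igf2bp2, Igf2bp3 and Lin28b fall in the same length range and had none.

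**Figure D3:**
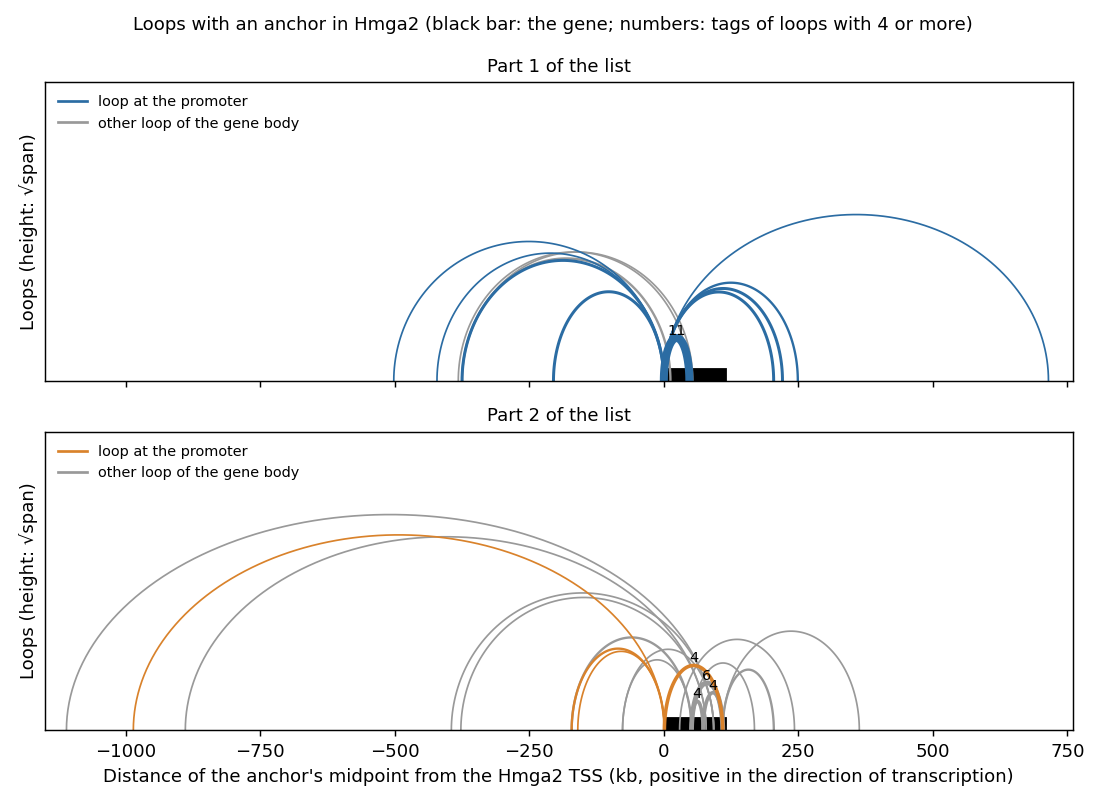
Arcs are the 30 loops with an anchor in Hmga2, placed by the distance of each anchor's midpoint from the TSS (kb, x axis, positive in the direction of transcription), with the square root of the span as height and line width rising with tags. Colored arcs start at the promoter and gray arcs elsewhere in the gene (black bar); the 11-tag loop of part 1 (top) ends in the intron, and part 2 (bottom) has 4 loops inside the gene.

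The other Hmga2 promoter loops went to both sides. In part 1, 3 tags each joined it to chr10:120255078-120256548 and chr10:120271375-120272880 (220.4 and 204.1 kb, both intergenic), to chr10:120680213-120682588 (205.2 kb, in an intron of 4930471E19Rik) and to the promoter of Msrb3, a methionine sulfoxide reductase (375 kb, FDR 9.49e-05). A further 2 tags reached Llph (248.9 kb), and single tags reached a second Msrb3 start with Gm4473, Lemd3, an inner nuclear membrane protein, and Grip1os2. In part 2, single tags reached the promoters of 4930471E19Rik and of Rassf3 with Gm48591. At 3 tags these loops were ordinary for their span, since 36.3 to 36.7% of part 1 loops within 10% of the same spans had at least 3. The Msrb3 loop was longer, and 9.26% of part 1 loops within 10% of its span had at least 3 tags.

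Of the 13 Hmga2 distal anchors, 8 were near another TSS (14 tags) and 5 were not (22 tags). No distal anchor of part 1 overlapped one of part 2, and the smallest gap between them was 31.7 kb. The intergenic anchor chr10:120271375-120272880 of part 1 did appear in part 2 as chr10:120270591-120273177, where it was joined to the 3′ anchor of Hmga2 by 2 tags (95.01 kb). Msrb3 promoters were also joined to sites in the Hmga2 gene away from the promoter, by 2 and 1 tags at 1 of its starts in part 1 and by 1 tag at another start in part 2.

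Hmga1 (ENSMUSG00000046711.16) encodes the second HMGA protein and lies on the plus strand of chromosome 17 at 27556497 to 27563674. Its loop score of 27 was above that of 93.2% of looped genes, at rank 839. Part 1 gave 25 tags in 8 loops and part 2 gave 2 tags in 2 loops, and within each part alone Hmga1 was above 92.4% and 40.9% of looped genes. A single loop of 8.094 kb held 16 of the 27 tags (FDR 0.00026, part 1) and joined the promoter to chr17:27562999-27566474, which covers the starts of AI413582 and C130040N14Rik and the end of Hmga1 itself. Among the 43 part 1 loops within 10% of this span the median was 13 tags and 27.9% had at least 16. Without loops under 20 kb, Hmga1 kept 11 tags and was above 81.5% of looped genes, while Hmga2 kept all 36 tags and was above 97.3%.

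The remaining Hmga1 loops were long, with 2 tags each to Snrpc, a protein of the U1 spliceosomal particle (283.8 kb), and to the shared start of Taf11, a subunit of the TFIID complex, Anks1 and AC126040.2 (352 kb). Single tags reached the starts of Itpr3, Dusp1 with Ergic1, and Capn15 with 1700022N22Rik in part 1, and of Mtch1 and a group of noncoding genes in part 2. Of its 10 distal anchors, 9 were near another TSS, and the other was intergenic with 1 tag. The distal anchors of the 2 parts did not overlap, with a smallest gap of 205 kb. The Hmga1 anchors also lie within 2 kb of the noncoding genes Gm49773 and Gm49774, so their tags cannot be told apart from those of Hmga1. Hmga1b, a copy of Hmga1 on chromosome 11, had no loop.

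**Figure D4:**
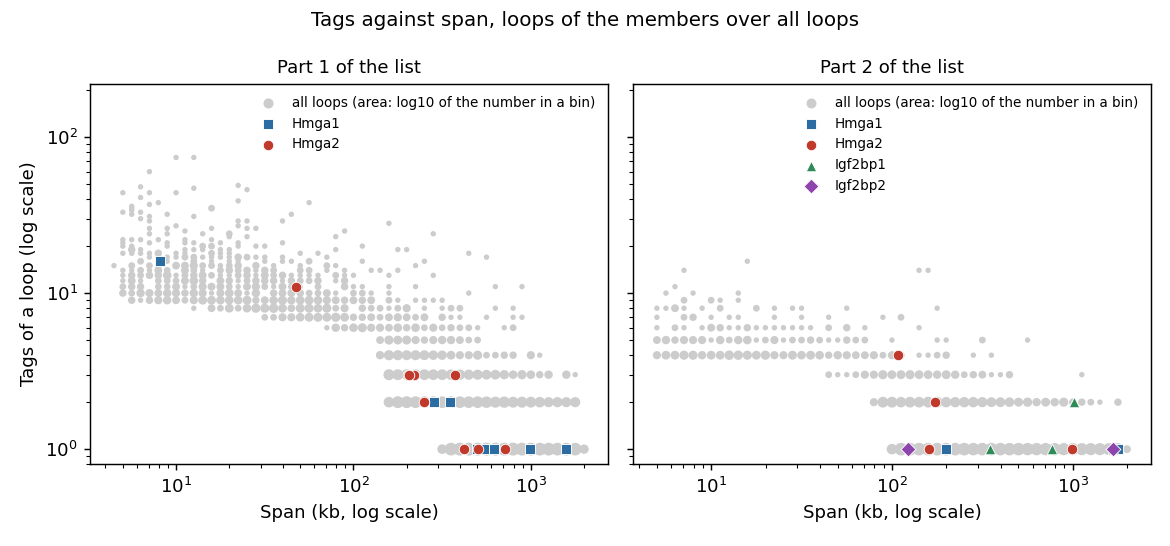
Each panel plots the tags of a loop against its span (kb) on log scales for 1 part of the list, with all loops in gray and the members' loops as colored symbols. The Hmga2 loop of 11 tags and the Hmga1 loop of 16 tags lie inside the gray cloud for their spans in part 1, and in part 2 the 4-tag Hmga2 loop lies at its upper side.

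The IGF2BP genes had few tags. Igf2bp1 (ENSMUSG00000013415.9, chromosome 11, 95957163 to 96005940, minus strand) had 5 tags in 4 loops, all in part 2. Its promoter was joined by 2 tags to Ppp1r9b, which encodes the phosphatase partner spinophilin (1014 kb, FDR 0.000249), a count reached by 2.12% of part 2 loops within 10% of this span. Single tags reached Hoxb2 with Hoxb3os, at the homeobox cluster (346.9 kb), and Snx11 (771.2 kb), and from an internal start of Igf2bp1 also Luc7l3 (1660 kb). The main promoter anchor also reaches Gm29202 and Gm37179. Hoxb2 itself had a loop score of 108, so the single tag to Igf2bp1 is a small share of its contacts.

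Igf2bp2 (ENSMUSG00000033581.17, chromosome 16, 22059009 to 22163299, minus strand) had 2 loops of a single tag, both in part 2. One led to Eif2b5, a subunit of the translation factor eIF2B (1664 kb), and the other to an exon of Senp2, a SUMO protease, 9.75 kb from the nearest TSS (123.3 kb). Both loops of Igf2bp2 are lost when loops of a single tag are left out.

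No loop was listed at Igf2bp3 (chromosome 6, 49085223 to 49214957), Lin28a (chromosome 4, 134003330 to 134018841) or Lin28b (chromosome 10, 45376620 to 45486395). The nearest loop anchor was 16.5 kb from a TSS of Igf2bp3, 5.58 kb from Lin28a and 179 kb from Lin28b. The TSS was spanned by 4 loops at Igf2bp3, by 40 at Lin28a and by 0 at Lin28b. Lin28a had 50 genes within 500 kb. The looped members Hmga1 and Igf2bp1 had 48 and 53 genes, with 49 and 36 loops spanning the TSS. The 40 loops spanning the Lin28a TSS held only 41 tags in all. In its gene body, 4 loops with a total of 4 tags had an anchor. Lin28b lay in a sparse neighborhood (19 genes). The list holds only loops past the caller's threshold, so a promoter with no loop may still have had tags. In part 1 no loop of 5 to 20 kb was listed with under 8 tags and none of 20 to 100 kb with under 6, and in part 2 these minima were 4 and 2 tags.

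Over all looped members there were 29 distal anchors, of which 22 were near another TSS (75.9%, Wilson 57.9 to 87.8%), and 79.1% of the 15002 distal anchors of looped protein-coding promoters were. This background lies inside the interval of the members, which is a description only, because anchors that share a promoter are not replicates. In 2 kb about the midpoints of the members' distal anchors, the AP-1-like letters TGANTCA were found in 12 of the 29 (41.4%). Of these 12, 6 were at Hmga2, and 35% of all 16864 anchors held the letters. Any base was allowed at N, so these are not counts of AP-1 sites. All 29 windows held an MboI site, with a median of 6, and the median over all anchors was 5.

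The rest of the let-7 pathway was looped to varying degree. For scale, 23.9% of all genes and 45.8% of protein-coding genes had a loop. Of 12 let-7 hairpins, 2 had a start near a loop anchor (16.7%), Mirlet7e with 25 tags in 6 loops and Mirlet7i with 2 tags in 2 loops. These are the annotated starts of the hairpins. The promoters of the longer transcripts that carry the hairpins were not looked for, so 16.7% is not a share of let-7 promoters. The Mirlet7e anchor also holds the starts of Mir99b, Mir125a and Spaca6, and 15 tags of part 1 and 6 of part 2 joined it over 10.49 kb to another Spaca6 start, so its tags cannot be assigned to the microRNA. The Mirlet7i anchor is shared with D630033A02Rik. Of 16 genes for let-7 processing and turnover, 13 had a loop (median score 3.5), from Xpo5, the exporter of microRNA precursors (46 tags in 16 loops), to Ago4, Trim71 and Msi1 with none. Tut4 and Dis3l2, which tail and degrade the precursors that LIN28 holds, had 12 and 4 tags. Of 12 other let-7 targets 11 had a loop (median 5), with the most at Ccnd2, which encodes cyclin D2 (27 tags), and none at Nras.

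Further embryonic and tumor genes had few tags. Of 10 other oncofetal genes, 4 had a loop (median 0), with the most at Tpbg (6 tags), and Igf2, whose mRNA gave the IGF2BP family its name, and its imprinted neighbor H19 had none. Of 9 other high mobility group genes, 5 had a loop (median 4), with the most at Hmg20b (25 tags). The highest score of each of these 2 lists was below those of Hmga1 and Hmga2. The interval of Hmg20b (16.2 to 36.9) overlapped those of Hmga1 (17.8 to 39.3) and Hmga2 (25.2 to 49.8), however. In part 2 Hmg20b had 5 tags and Hmga1 2. These lists and those of the let-7 pathway are small and were chosen with results of these data known. Their counts are a description beside the 45.8% of protein-coding genes with a loop.

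**Figure D5:**
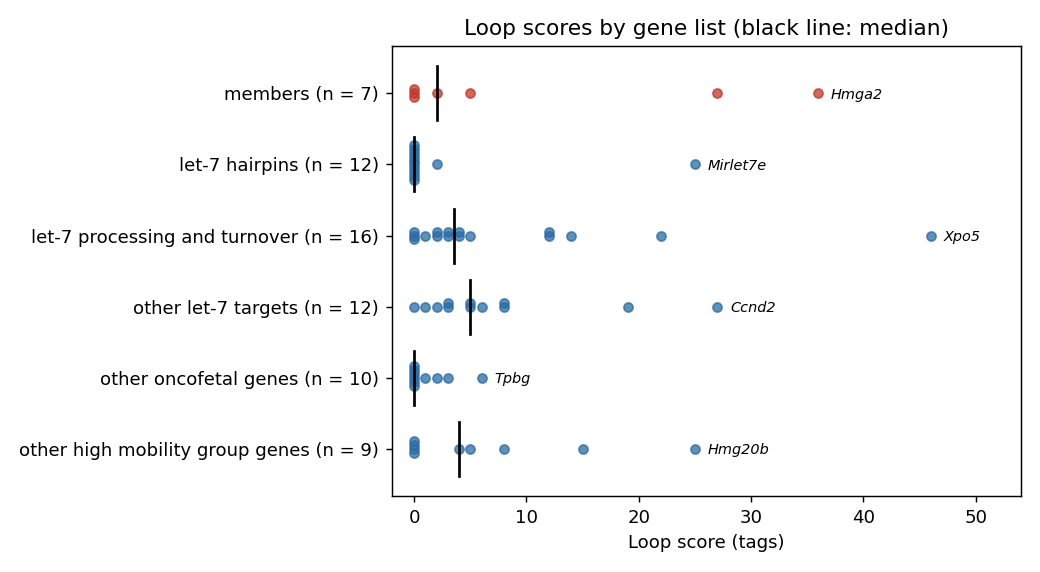
Each point is a gene and gives its loop score (tags, x axis) within a list (y axis, with the number of genes), and black lines are medians. The members' median is 2 tags, and Hmga2 at 36 tags exceeds every other plotted gene but Xpo5 at 46. By the start of the hairpin and not of its promoter, 10 of the 12 let-7 hairpins are at 0.

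Markers of the cells in a tumor were read in the same way. As only 45.8% of protein-coding genes had a loop, a marker with none is not unusual. Among 4 genes listed here as SyS markers, Sox2 had 39 tags, Tle1 4 and Cd99l2 3, and Bcl2 had none. Of these, the paper stained SOX2 and TLE1 in mouse SyS, while Cd99l2 and Bcl2 were chosen here and their marker status was not tested. All 5 immune markers, Ptprc, Cd68, Csf1r, Lyz2 and Cd3e, had none, 2 of 4 endothelial markers had 1 to 3 tags, and of 5 skeletal muscle markers only Ckm had any, with 2. Of the fibroblast markers Pdgfra had 41 tags, and Col1a1, Dcn and Lum had none. Fewer cells of a type and less signal per cell cannot be told apart in such samples, and the part of non-tumor cells in the scores of Hmga1 and Hmga2 was not tested.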

How the data were processed

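HiChIP reads were aligned by the authors with HiC-Pro (mm10), and hichipper, which uses the statistics of Mango, gave loops and their FDR for 2 hSS2 tumors, whose loops were then merged. The deposited list holds for each loop a pair of anchors, a count of paired-end tags that is not normalized, and the FDR, which is an adjusted p-value (threshold 0.05 in the methods and 0.01 in the supplement). How counts were merged is not given in the sources used here. The depth of 41574 tags over 24244 loops, with a median of 1 tag, limits the precision of any loop. The ChIP-seq samples were not analysed here.

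Anchors were converted to start at 1 and matched to TSSs of all GENCODE vM21 transcripts (GRCm38) within 2 kb, by gene symbol and without mitochondrial genes. The loop score was the sum of counts, a definition chosen here, and a span was the distance between anchor midpoints. Shares have Wilson and counts exact Poisson 95% intervals. With no value per tumor, no test was possible. The members, gene lists and comparisons were chosen with earlier results of these data known. Named were the members, genes at their loops of at least 2 tags and the extremes of each list, and genes at single-tag loops and inside-gene loops were added after their values were seen. Alternatives were windows of 1 and 5 kb, other sets of TSSs, stricter FDR and tag thresholds, each part alone, repeated pairs counted once, anchors of 4 kb and loops up to 1 Mb, while RefSeq TSSs and loops of at least 20 kb were added after seeing the data. Igf2bp1 had no entry in the RefSeq promoter table. The partner of 1 single-tag Hmga1 loop is not reported here. The assignment was tested on simulated data. Python 3.11.15, pandas 2.3.3, scipy 1.17.1 and pysam 0.24.0 were used.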

Additional observations from a re-analysis of the deposited data

How the results depend on the processing

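Across 15 alternatives Hmga2 and Hmga1 kept loops in every one, and Igf2bp3, Lin28a and Lin28b had none in any. Windows of 1 or 5 kb, 1 TSS per gene, RefSeq TSSs, anchors of 4 kb, repeated pairs counted once and loops up to 1 Mb left all results within their counting error. With TSSs of protein-coding transcripts only, 53.6% of distal anchors were near another TSS in place of 75.9%. An FDR under 0.01, the threshold named in the supplement, left 51 tags, 0 for Igf2bp2 and 54.5% of distal anchors near a TSS. An FDR under 0.001 left 25 tags, 7 for Hmga2, 16 for Hmga1 and 0 for Igf2bp2, with 100% of 4 distal anchors near a TSS. At least 2 tags left 53 tags in all and 0 for Igf2bp2. At least 4 tags left 2 looped members with 31 tags, 15 for Hmga2, 16 for Hmga1 and 0 for Igf2bp1 and Igf2bp2. Hmga2 was thus below Hmga1 under the strict FDR and at 4 tags. The first part alone gave 2 looped members with 53 tags and 0 for Igf2bp1 and Igf2bp2. The second part alone gave 17 tags, 8 for Hmga2 and 2 for Hmga1, so Igf2bp1 with 5 was above Hmga1. Loops of at least 20 kb held 54 tags, 11 of them at Hmga1. Each of these settings removes loops or TSSs by its construction. No paired analysis was possible because the merged list holds no value per tumor.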
